A study of Mus musculus with 9 samples.

Results

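The genes described are 10 markers of natural killer (NK) cells, T lymphocytes and the cytotoxic granules that both kinds of cell carry, measured by RNA sequencing in skin of athymic BALB/c-nude mice. They were chosen by name, as the rows of the deposited table of estimated counts whose symbol is Cd3e, Cd3g, Trdc, Nkg7, Klrk1, Klrb1c, Gzma, Gzmb, Prf1 or Ncr1, and all 10 were found among 57180 genes. The 9 libraries formed 3 groups of 3. UVB-hCOL3A1 skin was irradiated with ultraviolet B and treated with hCOL3A1, which the series title ties to human type III collagen delivered as mRNA. UVB-Saline skin was irradiated and treated with saline, and NoUVB skin was not irradiated. All 3 groups share the nude background. Irradiation was given to the back on alternate days for 8 weeks, at 60 mJ/cm² (1 minimal erythemal dose) in the first 2 weeks and at up to 240 mJ/cm² (4 minimal erythemal doses) in weeks 5 to 8. Collection is placed at day 28, and the start of that count is not given in the sources used here. The labels name no saline for NoUVB skin, so irradiation and saline cannot be told apart in a comparison with it. They name no group given the carrier alone or another RNA, so hCOL3A1 and its delivery cannot be told apart either. For dose, carrier and route, nothing is given in the sources used here.

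NK cells and cytotoxic T cells kill by releasing granules that hold perforin, a pore-forming protein, and granzymes, the serine proteases that enter the target cell with its help. NK cells decide to do so through germline-encoded receptors, among them NKG2D (Klrk1) and NKp46 (Ncr1), while T cells signal through an antigen receptor held in a complex with the CD3 chains. Nude mice form no functional thymus, so they have few conventional T cells but keep NK cells, and mice with a thymus also carry γδ T cells in the epidermis.

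Totals were 7640172 to 12927411 estimated counts per library, and 1 CPM, the unit of TMM-scaled levels below, stood for 7.04 to 13.1 counts. The 18S ribosomal RNA took 34.3% to 55.3% of the counts in 8 libraries and 7.71% in NoUVB 2. UVB-Saline 3 lay farthest along the first principal component (55.0) and UVB-hCOL3A1 3 came next (39.8). UVB-Saline 3 also held the highest value of 8 of the 10 members, so results are given with and without it. The labels used here do not split the 9 libraries into batches, so a batch effect could not be checked from them. No label ties a library to its own animal, so a p-value here speaks of the spread among these libraries, and some of that spread may be technical. Keratinocyte markers (5 of 5 genes detected) summed to 3780 to 7810 CPM and fibroblast markers (5 of 5) to 4190 to 6390 CPM over the 9 libraries. The table has 0 rows for the human COL3A1 symbol, so delivery could not be checked in it.

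Promoter windows of 5 members are shown here as examples of the granule proteases, the NK receptors and the antigen receptor chains. Each runs from 250 bases before to 50 after the start of the gene in RefSeq (mouse GRCm38.p6, not the build the authors counted on), on the gene's own strand. Capitals mark the Runx motif TGTGGT, which reads ACCACA on the other strand, and the T-box motif TCACAC, which reads GTGTGA on the other strand. Both strands were searched, and no 2 marked matches overlap. The motifs are named for the Runx and T-box transcription factors known for their roles in cytotoxic lymphocytes. The windows lie at chr13:113100932-113101231 (minus strand) for Gzma, chr14:56262285-56262584 (minus) for Gzmb, chr7:4337465-4337764 (plus) for Ncr1, chr6:129623815-129624114 (minus) for Klrk1 and chr9:45009562-45009861 (minus) for Cd3e.
Gzma: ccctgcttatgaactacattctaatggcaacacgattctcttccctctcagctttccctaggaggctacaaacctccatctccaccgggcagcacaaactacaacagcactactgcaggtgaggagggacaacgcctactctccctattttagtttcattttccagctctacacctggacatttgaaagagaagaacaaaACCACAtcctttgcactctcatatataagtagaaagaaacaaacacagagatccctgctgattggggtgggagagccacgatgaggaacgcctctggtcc
Gzmb: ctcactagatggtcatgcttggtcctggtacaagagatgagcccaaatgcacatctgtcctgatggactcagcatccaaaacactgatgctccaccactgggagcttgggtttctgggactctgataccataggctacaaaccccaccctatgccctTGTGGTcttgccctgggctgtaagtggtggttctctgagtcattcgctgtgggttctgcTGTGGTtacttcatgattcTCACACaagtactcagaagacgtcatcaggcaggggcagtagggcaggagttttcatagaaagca
Ncr1: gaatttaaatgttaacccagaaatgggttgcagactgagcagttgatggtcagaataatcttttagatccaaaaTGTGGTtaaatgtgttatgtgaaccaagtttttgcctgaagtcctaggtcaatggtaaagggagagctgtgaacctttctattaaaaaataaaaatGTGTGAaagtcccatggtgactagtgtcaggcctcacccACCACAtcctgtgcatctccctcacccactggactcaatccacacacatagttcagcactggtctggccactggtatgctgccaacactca
Klrk1: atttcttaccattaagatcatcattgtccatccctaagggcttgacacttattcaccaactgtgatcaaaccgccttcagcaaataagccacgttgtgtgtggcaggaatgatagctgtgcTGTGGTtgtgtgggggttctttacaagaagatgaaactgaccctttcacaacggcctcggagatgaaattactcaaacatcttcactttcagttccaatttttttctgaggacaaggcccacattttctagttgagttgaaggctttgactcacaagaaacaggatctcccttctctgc
Cd3e: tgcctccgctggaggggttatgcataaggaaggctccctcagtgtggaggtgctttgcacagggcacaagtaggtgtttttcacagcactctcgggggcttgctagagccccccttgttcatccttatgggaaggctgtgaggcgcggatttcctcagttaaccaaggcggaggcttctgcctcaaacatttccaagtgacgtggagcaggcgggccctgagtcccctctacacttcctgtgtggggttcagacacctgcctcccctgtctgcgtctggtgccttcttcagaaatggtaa

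A window was found for 9 of the 10 members. The Runx letters stood in 7 of those 9, namely in each of the NK receptor and granule members and in neither Cd3e nor Cd3g, against 16.8% of all 32851 windows in the table. The T-box letters stood in 3 of the 9 (Gzmb, Ncr1 and Nkg7), against 14.5% of all windows. On the same windows, the AP-1 letters TGANTCA were found in Gzmb and Klrk1 (7.81% of all windows), the STAT site TTCNNNGAA in Gzmb and Nkg7 (8.30%), and the interferon-stimulated response element (its consensus is given by name only) in Gzma (3.44%). The motif list was drawn up with the members known, and a match describes letters, not binding.

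The granule proteases Gzma and Gzmb are given first. Gzma (ENSMUSG00000023132, granzyme A, a trypsin-like protease) had 32, 22 and 22 counts in the UVB-hCOL3A1 libraries, 1, 0 and 16 in the UVB-Saline libraries and 0, 0 and 0 in the NoUVB libraries. On the CPM scale these were 2.44, 2.07 and 2.37 in UVB-hCOL3A1, 0.103, 0 and 1.73 in UVB-Saline, and 0 in each NoUVB library. All 3 UVB-hCOL3A1 libraries thus stood above all others, and the UVB-Saline counts came almost entirely from UVB-Saline 3. A floor of 3 counts over the NoUVB group corresponds to 0.105 CPM, against which Gzma was at least 22.0-fold higher in UVB-hCOL3A1 and at least 5.21-fold higher in UVB-Saline. Such floors cover counting error only. Over all genes, the edgeR quasi-likelihood test with Benjamini-Hochberg adjustment gave Gzma an adjusted p of 0.226 for UVB-hCOL3A1 against NoUVB (unadjusted 0.00573) and 0.545 for UVB-Saline against NoUVB (unadjusted 0.0556).

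Gzmb (ENSMUSG00000015437, granzyme B, which cleaves after aspartate and activates caspases) followed the same order. It had 1.91, 1.98 and 1.73 CPM in UVB-hCOL3A1, 0.205, 0.411 and 1.63 CPM in UVB-Saline, and 0.284, 0.0893 and 0.192 CPM in NoUVB. The UVB-hCOL3A1 libraries again lay above the other 6, but narrowly, with 16 counts in UVB-hCOL3A1 3 against 15.07 in UVB-Saline 3. UVB-Saline 1 and 2 lay near the NoUVB range. Gzmb was higher in UVB-hCOL3A1 than in NoUVB by 3.32 ± 0.72 on the log2 scale (SE, 95% interval 1.72 to 4.92, edgeR unadjusted p = 0.000858, adjusted p = 0.145). Against UVB-Saline the log2 difference was 1.36 ± 0.57 (SE, interval 0.11 to 2.61, edgeR adjusted p = 0.411). UVB-Saline against NoUVB gave 1.96 ± 0.82 (SE, adjusted p = 0.492). These rest on 62 rounded counts in UVB-hCOL3A1, 22 in UVB-Saline and 5 in NoUVB.

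The remaining granule genes differed less. Prf1 (ENSMUSG00000037202), which encodes perforin, had 1.83, 1.51 and 1.3 CPM in UVB-hCOL3A1, 0.205, 0.493 and 2.49 in UVB-Saline, and 0.852, 1.70 and 0.385 in NoUVB. Its groups overlapped in every comparison, and UVB-hCOL3A1 exceeded NoUVB by 0.64 ± 0.74 on the log2 scale (SE, edgeR adjusted p = 0.783). Nkg7 (ENSMUSG00000004612), a granule membrane protein needed for efficient degranulation, had 1.14, 1.41 and 1.83 CPM in UVB-hCOL3A1, 0.821, 1.07 and 5.09 in UVB-Saline, and 1.14, 0.625 and 0.769 in NoUVB. UVB-Saline 3 stood far above the rest, and the lowest UVB-hCOL3A1 library was level with the highest NoUVB library at the precision printed. The log2 differences of Nkg7 were 0.81 ± 0.71 for UVB-hCOL3A1 against NoUVB and 1.47 ± 0.68 for UVB-Saline against NoUVB (SE, edgeR adjusted p = 0.696 and 0.549).

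**Figure D1:**
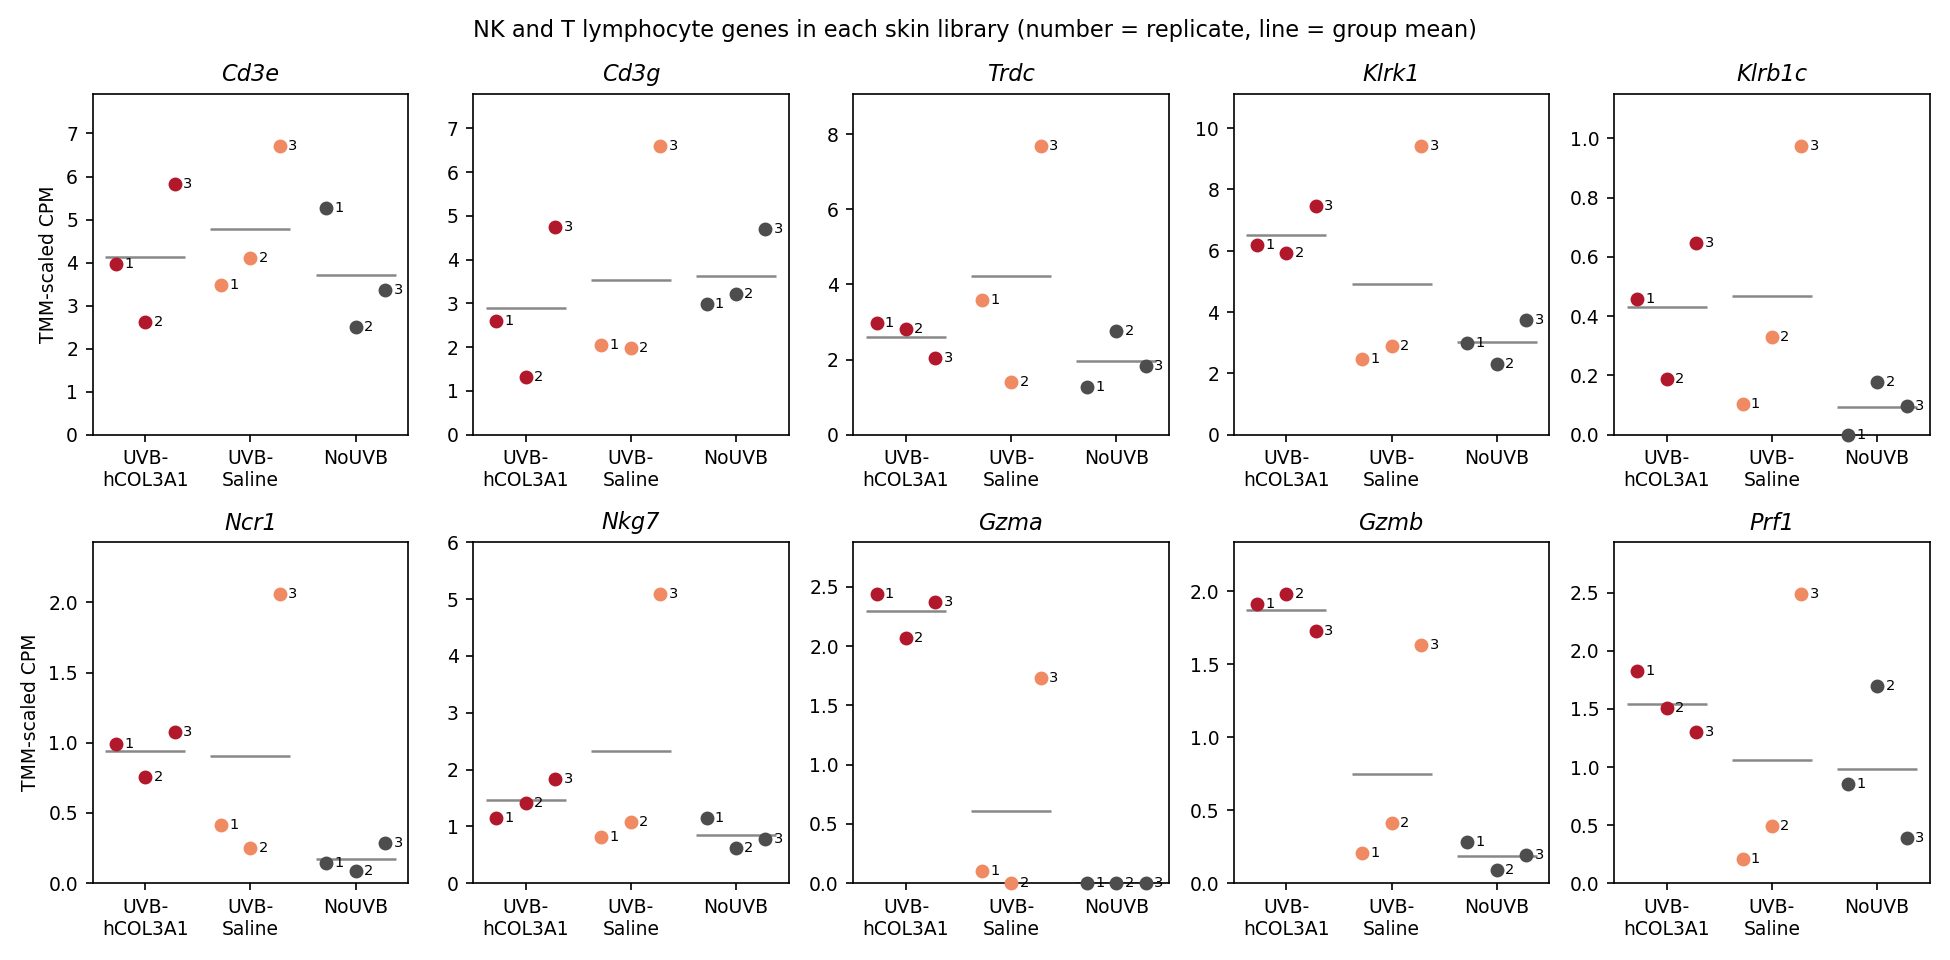
Level of each of the 10 genes in each library, as TMM-scaled CPM on a linear axis from 0 with its own range per gene; points are libraries numbered by replicate and the line is the group mean (n = 3). Gzma and Gzmb are highest in the 3 UVB-hCOL3A1 libraries, at 1.73 to 2.44 CPM, while UVB-Saline 3 holds the highest point of the other 8 genes.

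The NK receptors carry the recognition step of these cells. Klrk1 (ENSMUSG00000030149, NKG2D, which binds stress-induced ligands on other cells) had 6.18, 5.93 and 7.45 CPM in UVB-hCOL3A1, 2.46, 2.88 and 9.43 CPM in UVB-Saline, and 2.98, 2.32 and 3.75 CPM in NoUVB. The UVB-hCOL3A1 libraries did not overlap the NoUVB ones, whereas UVB-Saline 1 and 2 lay within the NoUVB range and UVB-Saline 3 above every other library. Klrk1 in UVB-hCOL3A1 was higher than in NoUVB by 1.11 ± 0.47 on the log2 scale (SE, 95% interval 0.05 to 2.16, edgeR unadjusted p = 0.0420, adjusted p = 0.401).

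Ncr1 (ENSMUSG00000062524, NKp46, an activating receptor carried mainly by NK cells and some innate lymphoid cells) had 0.991, 0.753 and 1.08 CPM in UVB-hCOL3A1, 0.411, 0.247 and 2.06 in UVB-Saline, and 0.142, 0.0893 and 0.289 in NoUVB. The UVB-hCOL3A1 and NoUVB libraries did not overlap, and UVB-Saline spanned both. The log2 difference was 2.35 ± 0.88 for UVB-hCOL3A1 against NoUVB and 2.24 ± 0.90 for UVB-Saline against NoUVB (SE, edgeR adjusted p = 0.340 and 0.484), on 31, 26 and 5 rounded counts in UVB-hCOL3A1, UVB-Saline and NoUVB. Klrb1c (ENSMUSG00000030325, the NK cell lectin-like receptor NKR-P1C) was too sparse for the test across genes, with 0.457, 0.188 and 0.648 CPM in UVB-hCOL3A1, 0.103, 0.329 and 0.976 in UVB-Saline, and 0, 0.179 and 0.0962 in NoUVB. Its summed counts were 14 in UVB-hCOL3A1, 14 in UVB-Saline and 3 in NoUVB, a ratio of 4.05 for UVB-hCOL3A1 over NoUVB (exact binomial 95% interval 1.13 to 22.0, counting error only). Its deposited value was not a whole number in 6 of the 9 libraries, so part of it was assigned among related genes and is uncertain.

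For the antigen receptor complex the differences from NoUVB had mixed signs, and the groups overlapped in every comparison. In UVB-hCOL3A1 against UVB-Saline the fitted log2 differences were -0.21 for Cd3e, -0.29 for Cd3g and -0.66 for Trdc. Cd3e (ENSMUSG00000032093) and Cd3g (ENSMUSG00000002033) encode CD3 chains that carry the signal of every T cell receptor. Cd3e had 3.96, 2.63 and 5.83 CPM in UVB-hCOL3A1, 3.49, 4.11 and 6.72 in UVB-Saline, and 5.26, 2.5 and 3.37 in NoUVB. Cd3g had 2.59, 1.32 and 4.75 CPM in UVB-hCOL3A1, 2.05, 1.97 and 6.61 in UVB-Saline, and 2.98, 3.21 and 4.71 in NoUVB. For both genes every pair of groups overlapped. Cd3e in UVB-hCOL3A1 differed from NoUVB by 0.18 ± 0.37 on the log2 scale (SE, 95% interval -0.65 to 1.01, edgeR adjusted p = 0.892), and Cd3g by -0.36 ± 0.56 (SE, interval -1.61 to 0.89, adjusted p = 0.843).

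Trdc (ENSMUSG00000104876), the constant region of the δ chain of γδ T cell receptors, had 2.97, 2.82 and 2.05 CPM in UVB-hCOL3A1, 3.59, 1.40 and 7.70 in UVB-Saline, and 1.28, 2.77 and 1.83 in NoUVB. Its groups overlapped in each comparison, with UVB-Saline 3 far above the rest. The log2 difference of Trdc was 0.39 ± 0.56 for UVB-hCOL3A1 against NoUVB (SE, 95% interval -0.86 to 1.64, edgeR adjusted p = 0.827) and 1.05 ± 0.54 for UVB-Saline against NoUVB (SE, adjusted p = 0.599). Deposited values of Trdc were not whole in 5 of 9 libraries. For Cd3e, Cd3g and Trdc a p that misses the threshold does not show equal levels.

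Of the 10 members, 9 passed the low-count filter, which asks for 0.938 CPM of unscaled library size in 3 libraries. In NoUVB no library reached that minimum for Ncr1, Nkg7, Gzma or Gzmb, so these passed through the irradiated libraries, and counts or medians over the tested members are not support for a difference. In UVB-hCOL3A1 against NoUVB, 0 of the 9 passed an adjusted p of 0.05 in edgeR, where 0.0408% of the 17168 genes tested did so as higher and 0% as lower. DESeq2 and limma voom also called 0 members. In these counts, here and below, a member that DESeq2 left without an adjusted p would count as not called. At an unadjusted p of 0.05 the members Gzmb, Gzma, Ncr1 and Klrk1 were higher, 4 of 9, beside 6.29% of all genes tested. The groups did not overlap, with UVB-hCOL3A1 higher, for 5 of the 9 (Gzma, Gzmb, Klrk1, Ncr1 and Nkg7), beside 10.7% of all genes. Klrb1c, outside the test, did the same. For Nkg7 the gap was below the precision printed, at 1.14 CPM in both UVB-hCOL3A1 1 and NoUVB 1. For Klrb1c it was 0.188 CPM in UVB-hCOL3A1 2 against 0.179 in NoUVB 2, from deposited values of 2.18 and 1.67. The median log2 difference was 0.81 over the 9, and 1.73 over the 6 tested NK receptor and granule members, beside -0.01 over all genes.

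In UVB-Saline against NoUVB, 0 of the 9 members passed the adjusted threshold in edgeR, beside 0% of all genes as higher and 0.0175% as lower, and DESeq2 and limma voom called 0 as well. At an unadjusted p of 0.05, 2 of 9 were higher (Ncr1 and Gzmb), beside 4.93% of all genes. No member kept the 2 groups apart, beside 7.18% of genes with UVB-Saline higher. The median over the 9 was 1.05, beside 0.01 over all genes. It was 0.21 without UVB-Saline 3, when Klrk1 gave -0.18 ± 0.27 and Gzmb 0.79 ± 0.72 (SE, log2).

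In UVB-hCOL3A1 against UVB-Saline, 0 of 9 passed the adjusted threshold in edgeR, beside 0% of all genes in either direction, and DESeq2 and limma voom called 0 members. At an unadjusted p of 0.05, 1 of 9 was higher (Gzmb), beside 5.97% of all genes. The groups did not overlap, with UVB-hCOL3A1 higher, for Gzma and Gzmb, beside 8.95% of genes. Gzma gave 1.99 ± 0.97 on the log2 scale (SE, 95% interval -0.31 to 4.29, adjusted p = 0.498). The median was 0.11 over the 9, beside -0.02 over all genes, and -0.29 over Cd3e, Cd3g and Trdc.

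UVB-Saline 3 decided much of this comparison. Without it, Gzma was higher in UVB-hCOL3A1 than in UVB-Saline by 5.34 ± 0.79 (SE, edgeR adjusted p = 0.0364), Gzmb by 2.54 ± 0.52 (adjusted p = 0.0534) and Klrk1 by 1.3 ± 0.26 (adjusted p = 0.0525), all on the log2 scale. The UVB-Saline libraries left, 1 and 2, held 1 and 0 counts of Gzma, so the size of its difference rests on 1 count there and is uncertain. The member median became 1.3. Against NoUVB, 3 members passed in UVB-hCOL3A1 when UVB-Saline 3 was left out, namely Klrk1 (1.12 ± 0.23, adjusted p = 0.0384), Gzmb (3.34 ± 0.51, adjusted p = 0.0134) and Gzma (adjusted p = 0.00853). Without UVB-Saline 1, Gzmb also passed (adjusted p = 0.0437). The labels give no reason to leave out either library.

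**Figure D2:**
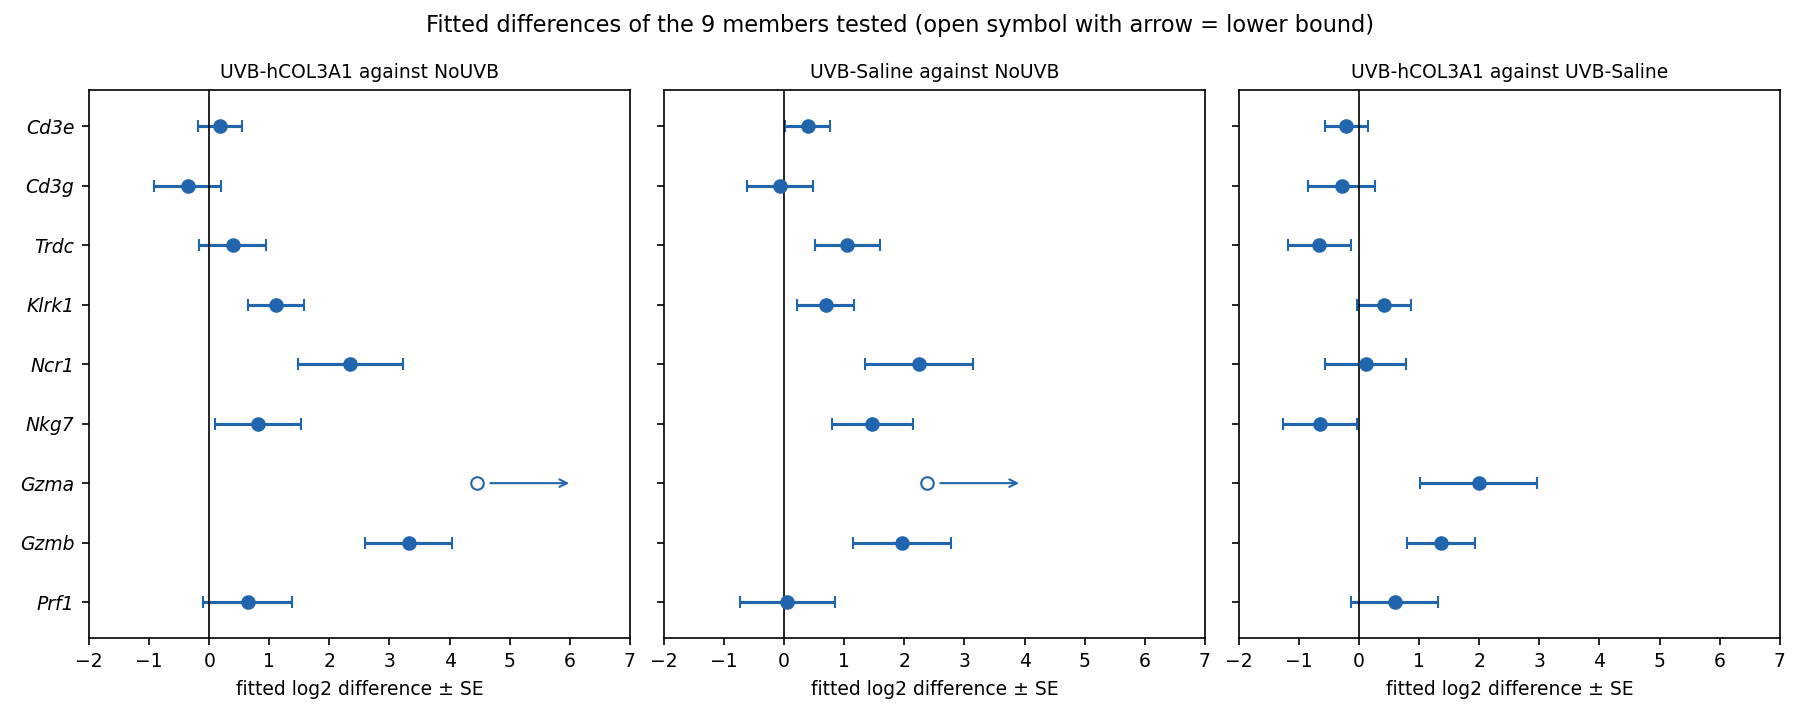
Fitted log2 difference ± SE of the 9 tested genes in the 3 comparisons, from 1 edgeR fit of all 9 libraries; positive values mean higher in the group named first. For Gzma against NoUVB, where all NoUVB counts are 0, the open symbol with an arrow is the bound from the count floor (4.46 and 2.38 on the log2 scale). That bound takes the counts of the first group as exact. Gzmb is at 3.32 and Cd3g at -0.36 in the first panel.

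Across libraries, the NK receptor and granule members as a sum took another order than the antigen receptor members. Summed over the 7 NK receptor and granule genes, UVB-hCOL3A1 libraries held 14.9, 13.8 and 16.4 CPM, UVB-Saline libraries 4.31, 5.43 and 23.4, and NoUVB libraries 5.40, 5.0 and 5.48. The 3 NoUVB libraries lay close together, and UVB-Saline 1 and 2 lay beside them. Summed over Cd3e, Cd3g and Trdc the values were 9.53, 6.77 and 12.6 CPM in UVB-hCOL3A1, 9.14, 7.48 and 21.0 in UVB-Saline, and 9.52, 8.48 and 9.91 in NoUVB. Apart from UVB-Saline 3 and UVB-hCOL3A1 3, those sums lay in 1 range. As a description over the 9 libraries, which share 3 groups, log2 CPM of Gzma and Gzmb correlated at r = 0.96, of Klrk1 and Ncr1 at 0.93 and of Klrk1 and Gzmb at 0.91, against 0.03 for Cd3g and Gzmb. Without UVB-Saline 3 these were 0.96, 0.90, 0.93 and -0.23 over 8 libraries.

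The genes whose log2 CPM followed the mean of the 9 tested members most closely among 12868 genes of at least 1 log2 CPM were Mov10 (Pearson r = 0.99 over 9 libraries), Arel1 (0.98), Sp100 (0.97), Ifi211 (0.97) and Slfn8 (0.96). Mov10 had 9.76, 9.69 and 10.8 CPM in UVB-hCOL3A1, 6.57, 6.58 and 13.3 in UVB-Saline, and 6.39, 6.43 and 7.02 in NoUVB, so it too was high in UVB-Saline 3 and in the 3 UVB-hCOL3A1 libraries. Without UVB-Saline 3 its r stayed at 0.99 over 8 libraries, and Slfn8 had 0.95. For the mean of Cd3e, Cd3g and Trdc the closest were Ifi47 (0.95), Nfkbie (0.95), Selenoh (0.95), Wrn (0.94) and Mmp25 (0.94). These rested more on UVB-Saline 3, where Ifi47 had 37.2 CPM against 4.52 to 12 in the other 8 libraries, and r for Ifi47 was 0.77 without it.

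**Figure D3:**
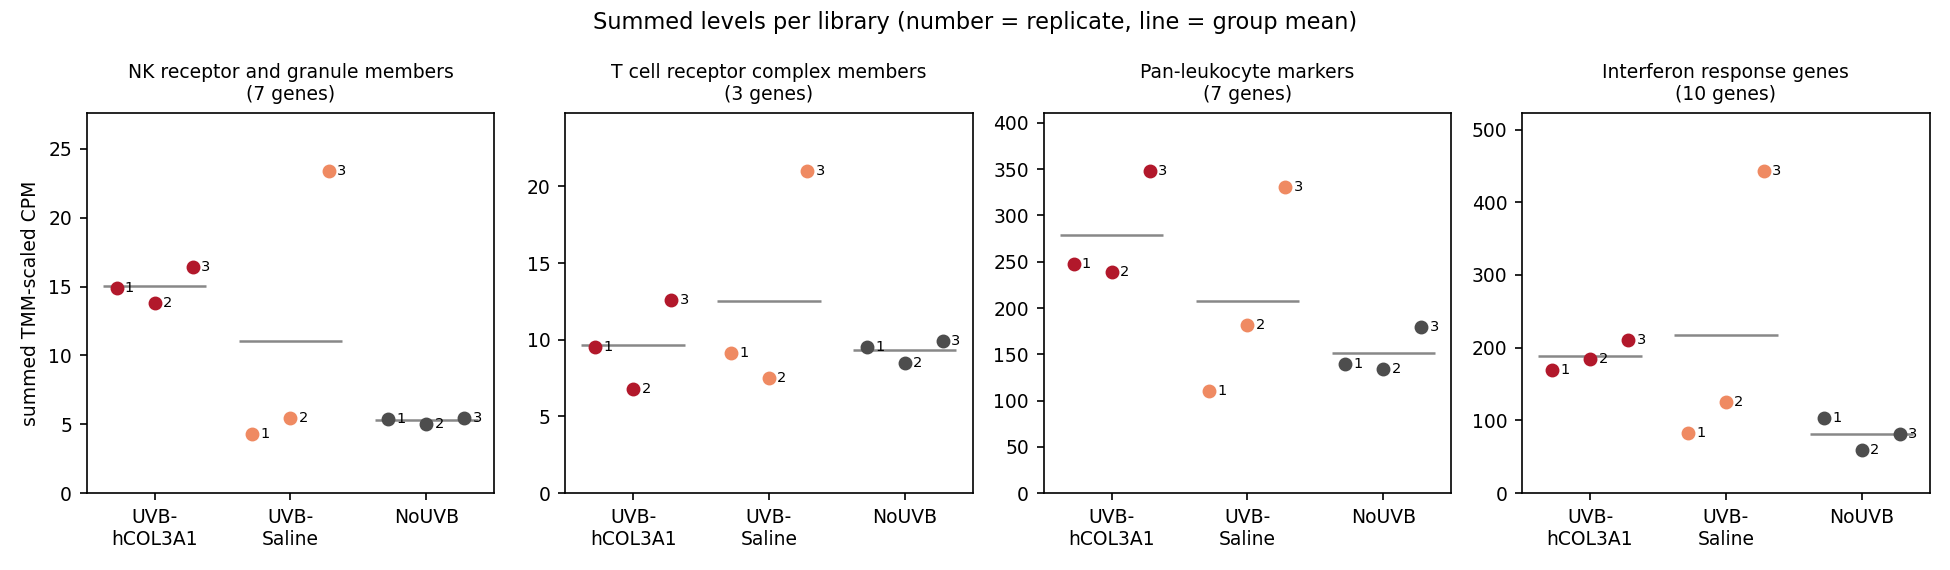
Summed TMM-scaled CPM per library for the 7 NK receptor and granule genes, the 3 antigen receptor genes, 7 pan-leukocyte markers and 10 interferon response genes, on linear axes from 0; points are libraries numbered by replicate and lines are group means (n = 3). The first panel has the 3 UVB-hCOL3A1 libraries at 13.8 to 16.4 CPM and UVB-Saline 3 at 23.4, above 5 libraries at 4.31 to 5.48.

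Levels of different genes depend on length, so they are given here as CPM per kilobase of exon (GENCODE M21). The length joins all annotated exons of a gene, such as 1006 bases for Gzma and 7183 for Klrk1. It can exceed the length of the transcripts present, so the order depends on this choice. Before this division the UVB-hCOL3A1 means were 2.29 CPM for Gzma and 6.52 for Klrk1. In UVB-hCOL3A1 the order ran Gzma (2.28 ± 0.195 CPM per kb, SD, n = 3), Nkg7 (1.6 ± 0.380), Gzmb (1.3 ± 0.0898), Cd3e (1.01 ± 0.394), Klrk1 (0.908 ± 0.113), Cd3g (0.883 ± 0.530), Trdc (0.676 ± 0.128), Ncr1 (0.611 ± 0.110), Prf1 (0.599 ± 0.103) and Klrb1c (0.146 ± 0.0780). On this scale the range of Gzma lay above all others, each neighbouring pair from Nkg7 to Prf1 overlapped, and Klrb1c lay below the rest. In UVB-Saline Nkg7 led (2.55 ± 2.62) with a spread as large as its mean, and Gzma ranked sixth (0.607 ± 0.965). In NoUVB the order began with Cd3g (1.11 ± 0.287), Nkg7 (0.924 ± 0.291) and Cd3e (0.909 ± 0.346), which did not differ beyond their spread, and ended with Gzma at 0.

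Further NK cell genes outside the 10 members were given by a list. Of 24 further NK cell genes, 11 were tested and 0 passed the adjusted threshold in any comparison, with median log2 differences of 0.18 for UVB-hCOL3A1 against NoUVB, 0.55 for UVB-Saline against NoUVB and 0.04 for UVB-hCOL3A1 against UVB-Saline. Il2rb, the β chain of the interleukin-2 and interleukin-15 receptors, had 9.45, 9.03 and 13.3 CPM in UVB-hCOL3A1, 3.28, 4.93 and 16.6 in UVB-Saline, and 3.69, 3.48 and 7.02 in NoUVB. It thus showed the order of Klrk1, with a log2 difference of 1.14 ± 0.58 from NoUVB (SE, edgeR adjusted p = 0.487). Eomes, a T-box factor of NK cells, had 1.45, 1.41 and 1.83 CPM in UVB-hCOL3A1, 0.821, 0.247 and 4.55 in UVB-Saline, and 1.14, 0.447 and 0.0962 in NoUVB. Tbx21, its relative T-bet, was below the filter, at 0.915 to 1.3 CPM in UVB-hCOL3A1, 0.0822 to 2.06 in UVB-Saline and 0.268 to 0.769 in NoUVB. Klrd1 (CD94) ran at 0.756 to 1.37 CPM in UVB-hCOL3A1, 0.308 to 1.3 in UVB-Saline and 0.357 to 1.06 in NoUVB, with overlap throughout.

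Cd7, a surface protein of T and NK cells, had an order of its own. It had 1.68, 1.32 and 1.83 CPM in UVB-hCOL3A1, 0.616, 0.740 and 1.19 in UVB-Saline, and 2.41, 2.41 and 2.02 in NoUVB, and no pair of groups overlapped. UVB-Saline against NoUVB gave -1.42 ± 0.33 on the log2 scale (SE, edgeR unadjusted p = 0.00131, adjusted p = 0.272), and UVB-hCOL3A1 against UVB-Saline 0.92 ± 0.33 (adjusted p = 0.368).

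Of 30 further T cell genes, 26 were in the table, 21 were tested and 0 passed in any comparison, with medians of 0.32 for UVB-hCOL3A1 against NoUVB, 0.37 for UVB-Saline against NoUVB and -0.08 for UVB-hCOL3A1 against UVB-Saline. None of the 26 was at 0 in all libraries. Trac, the constant region of the α chain, had 1.75, 0.941 and 2.27 CPM in UVB-hCOL3A1, 0.924, 1.48 and 2.49 in UVB-Saline, and 0.994, 0.893 and 2.31 in NoUVB, so the libraries of the 3 groups overlapped. Cd8a, a co-receptor of cytotoxic T cells, was at 1.22, 1.51 and 2.91 CPM in UVB-hCOL3A1, 1.64, 1.48 and 4.12 in UVB-Saline, and 1.28, 0.357 and 1.15 in NoUVB. UVB-Saline did not overlap NoUVB for Cd8a (log2 difference 1.40 ± 0.58, SE, edgeR unadjusted p = 0.0353, adjusted p = 0.491). Cd4 ran at 5.93 to 13.3 CPM in UVB-hCOL3A1, 3.70 to 11.6 in UVB-Saline and 5.54 to 11.3 in NoUVB.

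Among 16 further granule genes, 8 were tested, 0 passed, and the granzymes Gzmd, Gzme, Gzmf and Gzmg had 0 counts in all 9 libraries. Lamp1, a membrane protein of lysosomes and granules found in most cells, had 156, 182 and 141 CPM in UVB-hCOL3A1, 98.9, 123 and 119 in UVB-Saline, and 108, 117 and 102 in NoUVB. The UVB-hCOL3A1 libraries stood apart from both other groups, by 0.55 ± 0.12 from NoUVB (SE, edgeR unadjusted p = 0.00085, adjusted p = 0.145). Gzmc, chosen after its values were seen, had 7.32, 8.75 and 15.7 CPM in UVB-hCOL3A1, 1.74, 6.25 and 25.7 in UVB-Saline, and 3.69, 3.57 and 11.8 in NoUVB, without the separation of Gzma.

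Adaptors and ligands of the NK receptors were next. Of 10 signalling partners 7 were tested and 0 passed in any comparison. Against NoUVB, 5 of the 7 were fitted as higher in UVB-hCOL3A1, and the list median was 0.8 (log2). Libraries of these 2 groups stood apart for 4 of the 7 as higher, beside 10.7% of all genes, and for 1 as lower. The lower one was Plcg1, with 75.8 to 79.1 CPM in UVB-hCOL3A1, 79.1 to 87.9 in UVB-Saline and 93.3 to 99.7 in NoUVB. Tyrobp (DAP12), an adaptor of activating receptors in NK and myeloid cells, had 8.46, 8.66 and 10.8 CPM in UVB-hCOL3A1, 3.08, 5.84 and 8.35 in UVB-Saline, and 4.97, 5.27 and 5.19 in NoUVB, 0.85 ± 0.29 above NoUVB on the log2 scale (SE, edgeR adjusted p = 0.296). Its UVB-hCOL3A1 libraries lay above the other 6. Hcst (DAP10), the adaptor of NKG2D, was below the filter, at 0.648 to 1.14 CPM in UVB-hCOL3A1, 0.329 to 0.650 in UVB-Saline and 0.0893 to 0.577 in NoUVB. H60c, an NKG2D ligand made by keratinocytes, had 2.06, 1.88 and 2.37 CPM in UVB-hCOL3A1, 3.49, 4.36 and 2.38 in UVB-Saline, and 1.14, 1.88 and 2.60 in NoUVB. H60c was thus highest in UVB-Saline 1 and 2 (UVB-Saline against NoUVB 0.84 ± 0.33, SE, edgeR adjusted p = 0.467).

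Of 14 cytokines and chemokines that act on NK and T cells, 11 were tested and 0 passed in any comparison. Il15, which sustains NK cells, had 1.22, 1.03 and 1.40 CPM in UVB-hCOL3A1, 1.03, 1.56 and 1.3 in UVB-Saline, and 2.13, 1.70 and 1.35 in NoUVB. Cxcl9, a chemokine induced by interferon-γ, had 15.1, 15.2 and 45.4 CPM in UVB-hCOL3A1, 12.4, 4.85 and 202 in UVB-Saline, and 28.7, 3.04 and 17.2 in NoUVB. UVB-Saline 3 stood above the other 8 libraries, as it did for Cxcl10, with 33.0 CPM there against 2.32 to 7.23 elsewhere. Ccl5, a chemokine that cytotoxic lymphocytes themselves release, had 3.28, 6.30 and 4.64 CPM in UVB-hCOL3A1, 1.13, 0.658 and 5.20 in UVB-Saline, and 2.41, 0.357 and 1.64 in NoUVB. Ccl5 kept UVB-hCOL3A1 apart from NoUVB (log2 difference 1.76 ± 0.79, SE, edgeR adjusted p = 0.434). Of the 11 tested, only 1 was higher without overlap in that comparison, beside 10.7% of all genes, and 2 were lower without overlap. The log2 difference was positive for 6 of the 11, with a median of 0.19.

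Marker lists of other leukocytes did not all take the same order. In whole skin, more cells of a type and more RNA per cell cannot be told apart. The 7 pan-leukocyte markers, all detected, summed to 239 to 348 CPM in UVB-hCOL3A1, 110 to 331 in UVB-Saline and 134 to 180 in NoUVB, with a median log2 difference of 0.94 for UVB-hCOL3A1 against NoUVB and 0 of 7 passing. Cd53, a tetraspanin of leukocytes, had 10.7, 12.7 and 13.4 CPM in UVB-hCOL3A1, 4.00, 8.22 and 8.67 in UVB-Saline, and 5.11, 4.47 and 6.06 in NoUVB. The 7 macrophage markers summed to 382 to 501 CPM in UVB-hCOL3A1, 164 to 404 in UVB-Saline and 257 to 274 in NoUVB (median 0.90 against NoUVB, 0 of 7 passing), with none at 0 in all libraries. The 7 dendritic and Langerhans cell markers summed to 32.9 to 58.9 CPM in UVB-hCOL3A1, 24.3 to 78.7 in UVB-Saline and 31.0 to 59.7 in NoUVB, with a median of -0.15 for UVB-hCOL3A1 against NoUVB. The part of leukocyte number in the members' differences was not tested.

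Sums of the members were also set against Ptprc (CD45, present on all leukocytes). The 7 NK receptor and granule genes came to 13.7, 16.1 and 11.6 CPM per 100 CPM of Ptprc in UVB-hCOL3A1, 9.59, 7.07 and 17.2 in UVB-Saline, and 9.25, 8.68 and 6.26 in NoUVB. The UVB-hCOL3A1 libraries stayed above NoUVB on that scale as a sum, though not for each gene. Nkg7 came to 1.05, 1.65 and 1.29 counts per 100 Ptprc counts in UVB-hCOL3A1, 1.83, 1.39 and 3.74 in UVB-Saline, and 1.95, 1.09 and 0.879 in NoUVB. Prf1 came to 1.69, 1.76 and 0.914 in UVB-hCOL3A1, 0.457, 0.642 and 1.83 in UVB-Saline, and 1.46, 2.95 and 0.44 in NoUVB. For both genes the UVB-hCOL3A1 and NoUVB libraries overlapped. The 3 antigen receptor genes came to 8.78, 7.90 and 8.89 per 100 of Ptprc in UVB-hCOL3A1, 20.3, 9.74 and 15.4 in UVB-Saline, and 16.3, 14.7 and 11.3 in NoUVB. Here the UVB-hCOL3A1 libraries were below all 6 others as a sum, though no single gene was. Trdc, at 2.74, 3.29 and 1.45 counts per 100 Ptprc counts in UVB-hCOL3A1 and 2.19, 4.81 and 2.09 in NoUVB, overlapped. Cd3e also overlapped NoUVB, with 4.11 in UVB-hCOL3A1 3 against 3.85 in NoUVB 3. Cd3g overlapped UVB-Saline, with 3.35 in UVB-hCOL3A1 3 against 2.57 in UVB-Saline 2. These ratios describe the libraries and were not tested. Gzma alone was 2.25, 2.41 and 1.68 counts per 100 Ptprc counts in UVB-hCOL3A1, 0.228, 0 and 1.27 in UVB-Saline and 0 in NoUVB.

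**Figure D4:**
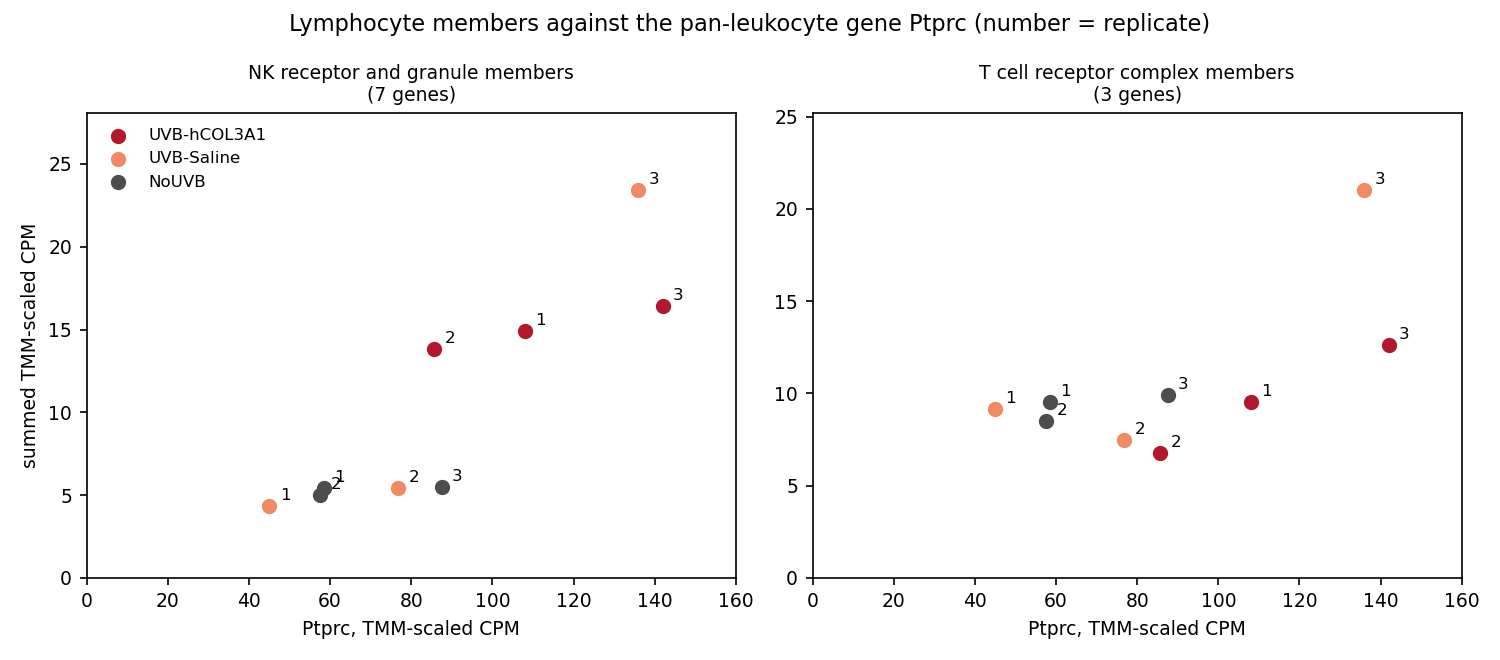
Summed TMM-scaled CPM of the 7 NK receptor and granule genes (left) and of the 3 antigen receptor genes (right) against Ptprc, each point 1 library numbered by replicate and coloured by group, both axes linear from 0. On the left the UVB-hCOL3A1 libraries hold 13.8 to 16.4 CPM at 85.7 to 142 CPM of Ptprc, while NoUVB 3 holds 5.48 at 87.5.

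B and plasma cell markers were uneven within groups. The 6 genes reported summed to 617, 44.7 and 314 CPM in UVB-hCOL3A1, 57.5, 11.5 and 234 in UVB-Saline, and 19.0, 19.0 and 22.6 in NoUVB. In UVB-hCOL3A1 2, where Gzma had 22 counts and Gzmb 21, Cd79a and Ms4a1 were at 0 counts, while Cd79b had 6, Ighm 316, Igkc 130 and Jchain 23. The part of B and plasma cells in the members' differences was not tested. Ly6g, a neutrophil marker, was at 0 in all 9 libraries, and the 7 neutrophil genes summed to 22.4 to 41.6 CPM in UVB-hCOL3A1, 17.3 to 32.7 in UVB-Saline and 14.2 to 26.1 in NoUVB.

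Of 10 interferon response genes, 2 passed the adjusted threshold as higher in UVB-hCOL3A1 against NoUVB, beside 0.0408% of all genes tested. At an unadjusted edgeR p of 0.05, 9 were higher, beside 6.29% of all genes tested. In UVB-Saline against NoUVB 0 passed, and 9 were higher at that unadjusted p, beside 4.93% of all genes tested. Median log2 differences were 2.02 for UVB-hCOL3A1 against NoUVB, 1.75 for UVB-Saline against NoUVB and -0.02 for UVB-hCOL3A1 against UVB-Saline. Irf7, a transcription factor that amplifies type I interferon, had 40.6, 58.9 and 33.6 CPM in UVB-hCOL3A1, 9.85, 16.2 and 23.3 in UVB-Saline, and 6.11, 5.89 and 4.81 in NoUVB, and rose by 2.99 ± 0.33 on the log2 scale in UVB-hCOL3A1 against NoUVB (SE, edgeR adjusted p = 0.0482). Oasl1, an antiviral protein of the same response, rose by 2.89 ± 0.37 (SE, adjusted p = 0.0482). Neither call held with limma voom (adjusted p = 0.0671 for Irf7 and 0.0975 for Oasl1), or without any 1 of the 3 NoUVB libraries, UVB-hCOL3A1 1 or UVB-hCOL3A1 2, with edgeR adjusted p from 0.144 to 0.239. The call of Irf7 was also lost without UVB-Saline 2 (adjusted p = 0.0647), and that of Oasl1 without UVB-hCOL3A1 3 (adjusted p = 0.118) and with non-robust dispersion (adjusted p = 0.0567). For Irf7 the 3 groups stood in separate steps, unlike Klrk1 and Gzmb, for which UVB-Saline 1 and 2 lay in or near the NoUVB range. Summed over the 10 genes, levels were 169, 185 and 211 CPM in UVB-hCOL3A1, 83.1, 126 and 443 in UVB-Saline, and 104, 59.2 and 82.0 in NoUVB. The part of the interferon response in the members' levels was not tested.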

How the data were processed

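RNA sequencing was done on 9 libraries of mouse skin, 3 per group, grouped and numbered by their titles. The authors deposited 1 table of estimated counts (expected counts, 11.1% to 14.0% of values per library not whole), which were rounded before testing. Per the submitters' processing notes, the tools were STAR 2.7.11b, RSEM 1.3.3, Bowtie2 2.5.4, fastp 0.23.4 and DESeq2 1.44.0, and the build was GRCm39. Neither annotation nor strandedness is given in the sources used here, and reads of antisense or overlapping genes may be mixed.

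With edgeR 4.0.16 (R 4.3.3), the 17168 genes that filterByExpr retained were scaled by TMM and fitted with all 3 groups in 1 robust quasi-likelihood model (residual degrees of freedom 6, common coefficient of biological variation 0.193). Contrasts were tested two-sided with Benjamini-Hochberg adjustment over all genes tested (threshold 0.05). Libraries of 1 group differed by a chi-square of 8.3 or more per degree of freedom, so each was counted as 1 replicate. The procedure was tested on simulated data.

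The members, gene lists and tests were chosen with earlier results of these data known. Named are the members, up to 4 genes per list with the smallest p in the contrast described, each list's defining genes and the 5 genes most like 2 member profiles. Lists are described by counts and medians without a test. The result of 1 listed gene is not reported here. Alternatives used limma 3.58.1 (voom), DESeq2 1.42.0, other scalings and filters, a replicate block and leaving out each library. Correlations without UVB-Saline 3 were added after seeing the data. Replicate numbers were not taken as pairs, since the labels state no pairing. Same-number correlations of deviations ran from 0.02 to 0.41, all positive, which does not settle whether the numbers mark pairs. Lengths and promoters come from GRCm38 annotation, used for those only.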

Additional observations from a re-analysis of the deposited data

How the results depend on the processing

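Of all members and settings, 20 fits reversed a sign and 12 moved a member past the threshold. Genes called in UVB-Saline against NoUVB numbered 3, and 100 with library size alone, 73 with no filter, 96 with DESeq2 and 61 with the replicate block. In UVB-hCOL3A1 against UVB-Saline they numbered 0, and 30, 106, 173 and 74 under the same 4 settings. In UVB-hCOL3A1 against NoUVB they numbered 7, and 159, 178, 269 and 118 there, 0 with limma voom, 1 with non-robust dispersion and 407 with only the 2 groups compared. Leaving out 1 library gave 0 to 12, 0 to 78 and 0 to 242 genes in these 3 comparisons.

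Members called were 0 in each comparison. With library size alone they were 1 in UVB-Saline against NoUVB (Gzma) and 2 in UVB-hCOL3A1 against NoUVB (Gzma and Gzmb), which also had 1 with no filter (Gzmb, adjusted p = 0.00253) and 3 with only its 2 groups (Gzma, Gzmb and Klrk1). Leaving out 1 library gave 0 to 0 members in UVB-Saline against NoUVB, 0 to 1 in UVB-hCOL3A1 against UVB-Saline and 0 to 3 in UVB-hCOL3A1 against NoUVB. Over all settings the adjusted p of Gzmb in that last comparison ran from 0.00167 to 0.359 and that of Gzma from 8.72e-08 to 0.519. Member medians without 1 library ran from 0.21 to 1.48, from -0.29 to 1.3 and from 0.76 to 1.05. The replicate block called 0 members in each comparison, and 7 of 9 libraries correlated best with their own number, a hint from the data and not from the design.

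Prf1 in UVB-Saline against NoUVB (0.05) was -0.16 with library size alone, -0.40 with limma voom and -0.03 with the replicate block. Without 1 library the log2 difference in that comparison ran from -1.45 to 0.79 for Prf1, from -0.87 to 0.23 for Cd3g and from -0.18 to 1.00 for Klrk1. In UVB-hCOL3A1 against UVB-Saline it ran from -0.36 to 1.53 for Ncr1, from -0.49 to 0.13 for Cd3e, from -0.79 to 0.52 for Cd3g, from -1.08 to 0.13 for Trdc and from -1.05 to 0.62 for Nkg7. For Cd3e in UVB-hCOL3A1 against NoUVB it ran from -0.11 to 0.50. Library size alone shifted the median of all genes to -0.12 in UVB-hCOL3A1 against NoUVB. The cause of these changes was not tested. Since 1 CPM stood for 7.04 to 13.1 counts, members near or under 1 CPM rest on few counts, which limits their precision.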
